A study of Saccharomyces cerevisiae with 24 samples.

Results

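The genes described here carried a FLAG-Rph1 peak both in rapamycin-treated and in untreated yeast. They are the 276 genes whose systematic identifier stood in both of the authors' lists of peak-bearing genes, out of 895 genes in either list. They made up 39.1% of the 705 genes listed under rapamycin and 59.2% of the 466 genes listed in untreated cells, while 429 genes were listed under rapamycin alone and 190 in untreated cells alone. Genes that lay next to each other and carried an identical value were counted as 1 locus, which gave 229 loci. The members were chosen by the peak values themselves, so those values are given as a description, whereas RNA was measured in separate libraries and could be tested.

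Rph1 is a zinc-finger protein with a JmjC domain that removes methyl groups from lysine 36 of histone H3 and is known as a repressor of stress and DNA-repair genes in budding yeast. Rapamycin inhibits TORC1, the kinase complex that couples nutrient supply to growth. When TORC1 is inhibited, yeast is known to shut down transcription of ribosomal protein and ribosome assembly genes and to switch on genes for nitrogen use and stress defence.

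All cells were of strain BY4741, a haploid laboratory strain of mating type a. The 8 RNA-seq libraries fell into 4 groups of 2, namely rph1 deletion with rapamycin, wild type with rapamycin, rph1 deletion untreated and wild type untreated. The peaks came from chromatin immunoprecipitation with a FLAG antibody in cells labelled wild type, with rapamycin and untreated, each with 2 immunoprecipitates and 2 inputs. Each list gave 1 value per gene, with no replicate, so no error can be attached to a fold enrichment. The labels give neither the dose and duration of rapamycin nor whether the paired libraries came from separate cultures, so p-values measure the spread between libraries, which may be technical. RNA polymerase II immunoprecipitates of the same series were not analysed here.

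The RNA libraries held 18037199 to 24769193 counts. RPH1, the deleted gene, had 82 and 45 counts in rapamycin-treated deletion cells against 1695 and 2107 in rapamycin-treated wild type, and 30 and 43 in untreated deletion cells against 1057 and 1850 in untreated wild type. RPH1 was itself listed under rapamycin alone. Of the strain markers, LEU2, URA3 and MET17, which BY4741 lacks, had 0 or 1 count in every library, while HIS3, of which BY4741 carries a partial deletion, had 1391 to 8201. The a-specific genes MFA1, MFA2, STE2, STE6, BAR1 and AGA2 had at least 1084. STE3, the a-factor receptor of alpha cells, had 312 and 360 counts in rapamycin-treated deletion cells against 95 and 77 in rapamycin-treated wild type, and 241 and 230 in untreated deletion cells against 39 and 58 in untreated wild type. Of the other alpha-specific genes, MF(ALPHA)1 had 3 to 12 counts and was not tested, and MF(ALPHA)2 had 92 to 163 with no call between the genotypes, while SAG1 had 627 to 2326 and was higher in the deletion under rapamycin (log2 fold change 0.41, edgeR adjusted p = 0.0399) and not called in untreated cells (-0.03). The a-specific AGA2 was also higher in the deletion, by 0.47 under rapamycin and 1.04 in untreated cells. The part of these differences in the results was not tested.

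The 276 genes were 202 protein-coding genes, 43 small nucleolar or nuclear RNA genes, 4 tRNA genes, 1 pseudogene and 26 other entries that the gene table does not hold. These other entries were reading frames and the RNA gene NME1, among others. The span given for every member was that of the gene and not that of the peak, and it was identical in both lists. The position of the peak within or beside a gene is therefore not used here. Of the 229 loci, 191 held 1 gene, 33 held 2, 4 held 3 and 1 held 7. The locus of 7 was the cluster of small nucleolar RNA genes SNR78, SNR77, SNR76, SNR75, SNR74 and SNR73 with the reading frame YMR013W-A on chromosome XIII. Of the 47 neighbouring pairs within loci, 27 overlapped, and those that did not lay a median of 125 bp and at most 574 bp apart. The pair 574 bp apart was HSP150 and CIS3, neighbouring genes of PIR cell wall proteins that point towards each other. Divergent histone gene pairs had separate values, such as 409 for HHT2 and 138 for HHF2 under rapamycin, and 56.0 for HHT2 and 31.4 for HHF2 in untreated cells. A count of reads could be obtained for 275 members, and 258 of them passed the filter on low counts. The 18 that could not be tested were 4 tRNA genes, 5 small RNA genes, 7 reading frames that the gene table does not hold, the pseudogene YDR134C and HYP2, which encodes translation factor eIF5A and is overlapped by another frame. None of those with counts exceeded 11 reads in any library. HYP2 and the overlapping frames YMR307C-A and YKL156C-A had 0 reads in every library. The protocol and notes used here do not state whether reads were counted by strand or left out of both genes in an overlap. This was not tested, so the values of overlapping genes are uncertain.

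The same genes bore peaks in both conditions, yet the size of the enrichment differed between them for many genes. Fold enrichment is the authors' value of signal over background at a peak. Its median over members was 34.2 under rapamycin (range 6.74 to 691), against 50.6 in untreated cells (range 6.21 to 273). It was higher under rapamycin for 124 members and lower for 152, that is higher for 44.9%. Counted by locus, it was higher for 108 and lower for 121, that is higher for 47.2%. More than a 2-fold gain was seen for 74 members (64 loci), more than a 2-fold loss for 93 (77 loci), and 109 (88 loci) stayed within 2-fold. Across all 229 loci the log2 values of the 2 conditions were nearly unrelated (Pearson r = 0.14, Spearman rho = 0.10). The lists rest on separate immunoprecipitates of the same tagged protein. Within gene groups, however, the values of the 2 conditions were related. Among the 70 ribosomal protein genes r was 0.54 and rho 0.53. Among the 132 protein-coding members outside the ribosomal list r was 0.52 and rho 0.47. These groups were chosen after the data had been seen. Over entire lists the medians were 25.3 under rapamycin and 45.0 in untreated cells. The lists held partly different genes, and whether their scales differed was not tested. When each gene was placed by its rank within its own list instead, 144 members stood higher under rapamycin and 132 lower.

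**Figure D1:**
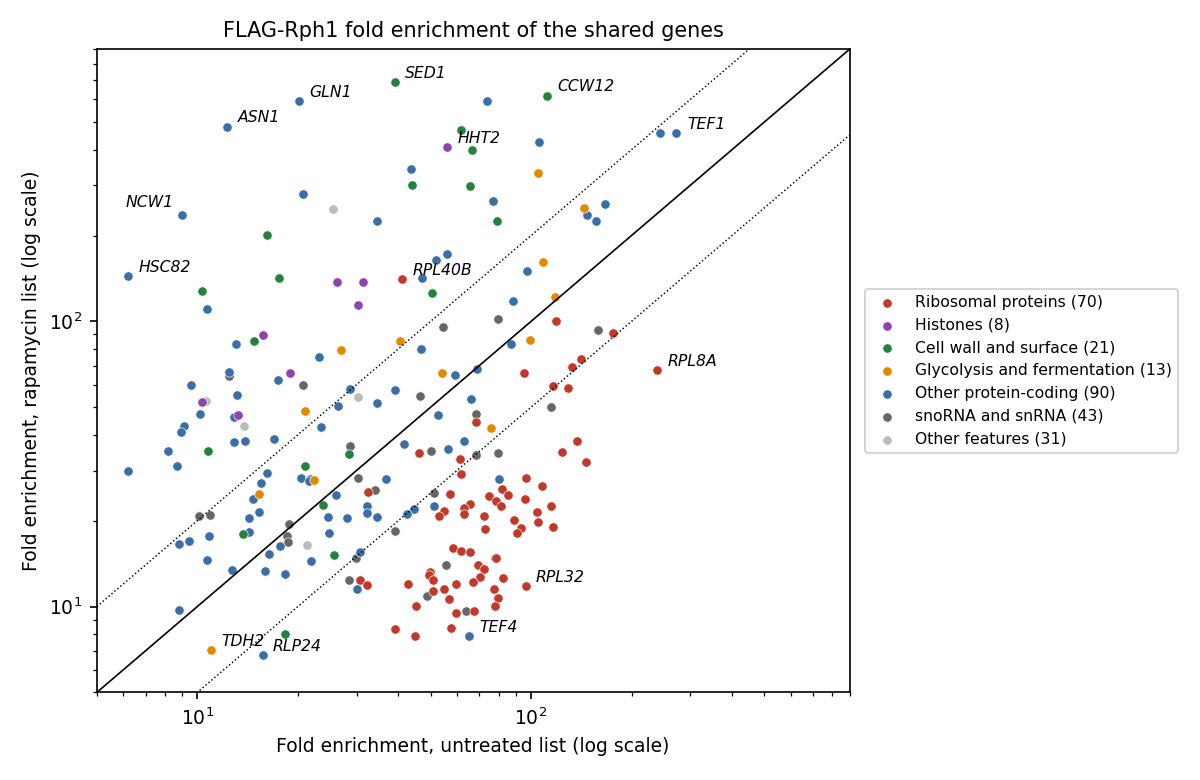
Fold enrichment of FLAG-Rph1 under rapamycin (vertical, log scale) against untreated cells (horizontal, log scale) for each of the 276 genes, coloured by gene group, with the numbers of genes in the legend. The solid line marks equal values and the dotted lines a 2-fold difference: 69 of the 70 ribosomal protein genes lie below the solid line, while all 8 histone genes and 18 of 21 cell wall genes lie above it. Other features are tRNA genes, a pseudogene and other entries outside the gene table.

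Ribosomal protein genes were the largest functional group among the members. Of 137 such genes in the count table, 70 were members, 65 were listed in untreated cells alone, none under rapamycin alone, and 2 in neither list. Enrichment was lower under rapamycin for 69 of the 70, with medians of 19.9 under rapamycin and 72.3 in untreated cells and a median log2 ratio of -1.94. RPL32 (chromosome II, 45978 to 46370, coordinates of sacCer3 throughout), a gene of the large subunit, had an enrichment of 11.8 under rapamycin against 96.3 untreated. RPS1B of the small subunit had 10.7 under rapamycin against 79.6 untreated. RPL8A, the ribosomal protein gene with the highest untreated value, had 67.3 under rapamycin against 239 untreated. The exception was RPL40B, which encodes a fusion of ubiquitin with a large-subunit protein, at 141 under rapamycin and 41.0 untreated. Large-subunit genes (39 members, median log2 ratio -1.93) and small-subunit genes (31 members, median -1.95) lay close to each other.

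The remaining 132 protein-coding members mostly moved the other way, with a higher value under rapamycin for 98 of them and a median log2 ratio of 0.80. The largest gains belonged to enzymes of nitrogen assimilation, to cell wall proteins and to a chaperone. ASN1 (chromosome XVI, 822620 to 824338), an asparagine synthetase, had an enrichment of 482 under rapamycin against 12.3 untreated. GLN1 (chromosome XVI, 642208 to 643320), glutamine synthetase, had 593 under rapamycin against 20.2 untreated. SED1 (chromosome IV, 600793 to 601809), a major structural protein of the cell wall, had the highest enrichment of any member under rapamycin, 691, against 39.1 untreated. NCW1, a cell wall protein gene, had 236 under rapamycin against 9.01 untreated, and HSC82, an Hsp90 chaperone gene, had 145 against 6.21. The 2 genes of elongation factor eEF1A, TEF1 and TEF2, stood near the top in both conditions, at 456 and 457 under rapamycin and at 273 and 243 untreated. Their coding sequences are nearly identical, so reads may be shared between them, which holds for both the peak values and the RNA counts.

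By group, enrichment was higher under rapamycin for 18 of 21 cell wall and surface genes (median log2 ratio 2.39), for all 8 histone genes (median 2.23) and for 6 of 7 stress and chaperone genes (median 1.84). It was higher for 10 of 13 genes of glycolysis and fermentation, with a smaller median of 0.57. Translation factors were divided, 8 higher and 8 lower, from TEF4, an eEF1B subunit gene that shares its value with the intron-encoded SNR38 (7.87 under rapamycin against 65.0 untreated, the largest loss of all), to KRS1, the lysyl-tRNA synthetase gene, named after its values had been seen (46.2 against 12.9). Ribosome assembly genes had 2 higher and 5 lower. Small nucleolar and nuclear RNA genes, which lay in 31 loci, had 11 genes higher and 32 lower, with a median log2 ratio of -0.77.

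Members at the low edge of the lists had values similar to those of genes just outside the set. The lowest member values were 6.74 for RLP24 and 7.03 for TDH2 under rapamycin, and 6.21 for HSC82 and 6.22 for SND3 in untreated cells. The lowest values among genes listed in 1 condition were 5.01 for VTC1 under rapamycin and 6.29 for NMD3 in untreated cells. At the other end, the highest values in each list belonged to genes outside the set, CIT2 at 1300 under rapamycin and the ribosomal RNA gene RDN37-2 at 773 in untreated cells.

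The shared genes had high RNA levels, especially in untreated cells. CPM values (counts scaled to library size) divided by gene length had a median over the 258 tested members of 287 and 248 CPM per kb in the rapamycin-treated wild type, against 803 and 906 in the untreated wild type. In rph1 deletion cells the medians were 387 and 348 under rapamycin against 826 and 824 untreated. Genes in neither list had medians between 42.6 and 45.3 CPM per kb in all 8 libraries. Genes listed under rapamycin alone had 275 and 291 CPM per kb in the rapamycin-treated wild type against 130 and 130 in the untreated wild type, which is the reverse order. The members together took 22.3 to 24.7% of all counts in the 4 rapamycin libraries and 35.1 to 36.9% in the 4 untreated ones. The members of the ribosomal protein family alone took 1.61 to 3.04% in the rapamycin libraries and 10.9 to 12.4% in the untreated ones. In bulk cultures, less RNA per cell and fewer cells with the RNA cannot be told apart.

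**Figure D2:**
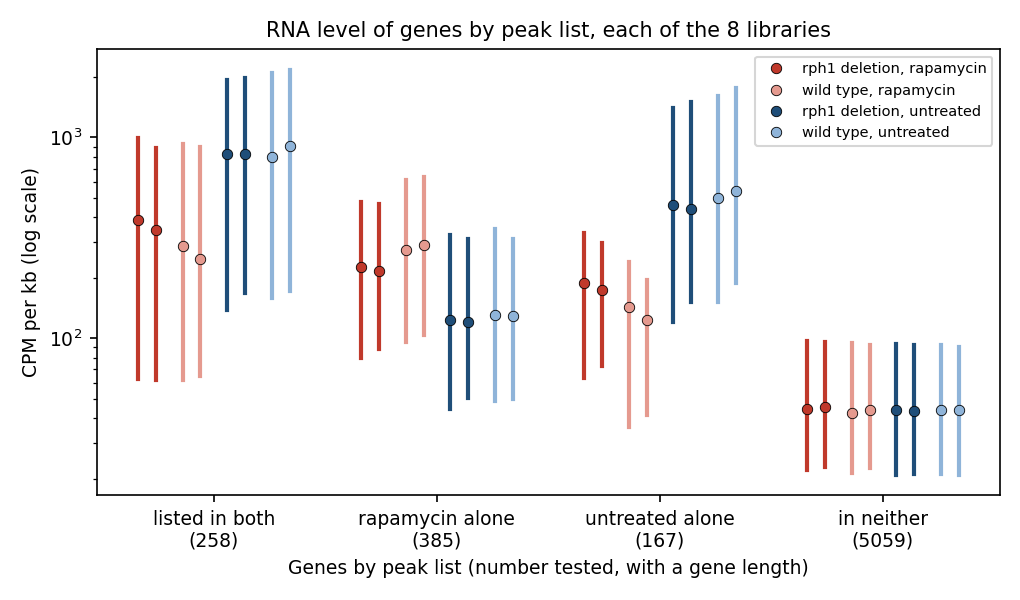
RNA level in CPM per kb (vertical, log scale) for genes listed in both conditions, under rapamycin alone, in untreated cells alone and in neither list, with the number of genes that were tested and have a length. Each point is the median of 1 library and each bar spans the quartiles; medians of genes in both lists are 248 to 387 in the 4 rapamycin libraries and 803 to 906 in the 4 untreated ones.

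Within the set, genes with a higher enrichment tended to have a higher RNA level per kb. Over the 258 tested genes, Spearman rho between fold enrichment and wild-type CPM per kb was 0.37 under rapamycin and 0.21 in untreated cells. Pearson r on the log2 scale was 0.37 under rapamycin and only 0.085 untreated. With the most expressed gene taken for each of 227 loci, rho was 0.47 under rapamycin and 0.39 untreated, and Pearson r on the log2 scale was 0.47 under rapamycin and 0.29 untreated. Among the 70 ribosomal protein genes alone rho was 0.13 under rapamycin and 0.29 in untreated cells, while r was -0.0012 and 0.029. Other subsets gave higher values. Over 168 protein-coding genes that shared their value with no neighbour, rho was 0.53 under rapamycin and 0.59 untreated, and r was 0.55 in both. Over 131 protein-coding members outside the ribosomal list, rho was 0.60 under rapamycin and 0.38 untreated, and r was 0.57 and 0.37. These coefficients are across genes, which are not independent replicates, and every gene shares the same libraries.

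Rapamycin lowered the RNA of most of the shared genes in the wild type. Of the 258 tested, 184 were called lower and 37 higher (edgeR quasi-likelihood test, adjusted p under 0.05), against 33.9% lower and 34.8% higher among all 6169 genes tested. The median log2 fold change was -1.47 over members and 0.02 over all genes. The scaling of counts places the bulk of genes near no change, so these are changes relative to other genes. In the rph1 deletion, 179 were lower and 27 higher, against 28.7% lower and 28.6% higher among all genes, and the median was -1.05. The direction differed between the kinds of listed gene: of 385 tested genes listed under rapamycin alone, 254 were higher and 49 lower in the wild type, and of 167 listed in untreated cells alone, 3 were higher and 156 lower. With each library left out in turn, 195 of the 221 calls in the wild type and 167 of the 206 in the deletion held in every fit.

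All 70 ribosomal protein members fell with rapamycin in both genotypes, and they did so in every fit that left out a library. Their median log2 fold change was -2.23 in the deletion and -2.99 in the wild type. RPL5, whose product carries 5S ribosomal RNA into the large subunit, had 893 and 679 CPM in rapamycin-treated deletion cells against 5063 and 4508 in untreated deletion cells. In the wild type it had 463 and 332 CPM with rapamycin against 5518 and 5320 untreated. Every treated library was thus far below every untreated one, and the treated wild type was lowest (log2 fold change -3.77 ± 0.22 in the wild type, adjusted p = 3.57e-06, ± standard error; -2.61 ± 0.21 in the deletion, adjusted p = 3.99e-05). RPS9A, a small-subunit gene, had the largest fall of the family in the wild type, with 14.2 and 15.6 CPM treated against 218 and 284 untreated (-4.07 ± 0.20, adjusted p = 2.21e-06). RPL40B fell like the others (215 and 168 CPM treated against 1398 and 1559 untreated in the wild type, log2 fold change -2.95 ± 0.16, adjusted p = 2.43e-06), although it was the family member with a gain of enrichment. The 67 ribosomal protein genes that were not members had a similar median of -3.05 in the wild type, with 66 lower and 1 higher. Many genes of this family exist as near-identical pairs whose reads may be split.

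Genes of the translation and ribosome assembly machinery fell as well. Of 15 tested translation factor and tRNA synthetase members, 14 were lower in the wild type and 14 in the deletion. YEF3, elongation factor 3, had 2605 and 2836 CPM with rapamycin against 7441 and 8301 untreated in the wild type (log2 fold change -1.53 ± 0.15, adjusted p = 4.07e-05). All 7 ribosome assembly members were lower in both genotypes. Among them DBP2, an RNA helicase gene, had the largest fall, with 43.4 and 59.7 CPM treated against 597 and 917 untreated in the wild type (-3.88 ± 0.26, adjusted p = 6.62e-06). Its enrichment was 118 under rapamycin and 88.2 untreated, so a fall of RNA stood beside a slight gain of enrichment.

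Of 38 tested small nucleolar and nuclear RNA members, 25 were lower and 6 higher in the wild type, and 18 were lower and 1 higher in the deletion. The 6 were 3 without untreated wild-type replicate 2, and the 1 was 0 without treated deletion replicate 1. SNR44, encoded within RPS22B, had 3.20 and 2.62 CPM treated against 98.5 and 105 untreated in the wild type (log2 fold change -5.12 ± 0.16, adjusted p = 6.39e-07), the largest fall of any member. SNR30, which guides early cleavage of ribosomal RNA, had 4.003 and 5.62 CPM treated against 72.5 and 66.7 untreated (-3.86 ± 0.29, adjusted p = 1.16e-05). Levels of these small RNAs were low, and the labels name total RNA without saying whether short transcripts were kept, so the counts need not measure the mature RNA.

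Genes of glycolysis and fermentation fell although most gained enrichment. Of 13 members, 11 were lower and none higher in the wild type, and 13 were lower in the deletion. CDC19, pyruvate kinase, had 2202 and 2155 CPM with rapamycin against 6800 and 5820 untreated in the wild type (-1.53 ± 0.17, adjusted p = 9.99e-05), while its enrichment was 250 under rapamycin and 145 untreated. TDH3, the main glyceraldehyde-3-phosphate dehydrogenase gene, had 20603 and 18607 CPM treated against 32651 and 24835 untreated, a difference that missed the threshold (-0.55 ± 0.25, adjusted p = 0.0842).

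A smaller group gained both enrichment and RNA. GLN1 had 4380 and 4511 CPM with rapamycin against 1209 and 1293 untreated in the wild type (log2 fold change 1.83 ± 0.18, adjusted p = 4.63e-05). In the deletion GLN1 had 3621 and 4229 CPM with rapamycin against 888 and 1213 untreated (1.90 ± 0.18, adjusted p = 7.95e-05). Both treated groups lay above both untreated ones, to about the same extent. ASN1 had 2172 and 3133 CPM treated against 816 and 1019 untreated in the wild type (1.53 ± 0.22, adjusted p = 0.000449). GCN4, the transcription activator of amino acid synthesis genes, had 3204 and 2975 CPM treated against 1238 and 1302 untreated in the wild type (1.28 ± 0.12, adjusted p = 3.28e-05). ASN1 and GCN4 were the 2 of 6 members on the amino acid synthesis list that rose in the wild type, and 3 fell. ILV5, which makes branched-chain amino acids, fell despite an enrichment of 225 under rapamycin and 157 untreated, with 220 and 288 CPM treated against 666 and 1651 untreated in the wild type (-2.19 ± 0.51, adjusted p = 0.00548). HXT3, a low-affinity hexose transporter gene, had 2376 and 2899 CPM treated against 1011 and 1124 untreated (1.30 ± 0.17, adjusted p = 0.000245).

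Of the 21 cell wall and surface members, 9 were higher and 4 lower with rapamycin in the wild type, and 8 were higher and 2 lower in the deletion. SED1 had 8680 and 7725 CPM treated against 2499 and 2109 untreated in the wild type (log2 fold change 1.83 ± 0.16, adjusted p = 2.47e-05). EXG1, an exo-glucanase gene, had 1235 and 1611 CPM treated against 437 and 667 untreated (1.37 ± 0.25, adjusted p = 0.00162). In both genes every treated library exceeded every untreated one. CCW12, a cell wall mannoprotein gene whose enrichment of 619 was the second highest among members under rapamycin, showed no call, with 9627 and 7373 CPM treated against 10161 and 8508 untreated (-0.14 ± 0.22, adjusted p = 0.608). Its value under rapamycin was identical to that of the neighbouring AHP1, which was listed under rapamycin alone. UTR2, a chitin transglycosylase gene, fell, with 95.1 and 144 CPM treated against 323 and 614 untreated (-1.97 ± 0.39, adjusted p = 0.00223).

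Of the 8 histone members, 7 were higher with rapamycin in the wild type and 3 in the deletion, and none was lower. HHF2, a histone H4 gene, had 1622 and 1275 CPM treated against 842 and 752 untreated in the wild type (0.86 ± 0.18, adjusted p = 0.00276). In the deletion the same gene had 630 and 848 CPM treated against 706 and 765 untreated (0.01 ± 0.18, adjusted p = 0.977), so these groups overlapped. No histone member passed the edgeR test for a difference between the genotypes in the response to rapamycin (adjusted p of 0.0588 for HHF2 and higher for the others), while 1 had an unadjusted p under 0.05 and DESeq2 called 1. Histone genes of the same type are nearly identical and may share reads.

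Most stress and chaperone genes gained enrichment without a rise of RNA. SSA2, a cytosolic Hsp70 gene with an enrichment of 110 under rapamycin and 10.7 untreated, had 1434 and 1724 CPM treated against 4348 and 3446 untreated in the wild type (-1.30 ± 0.16, adjusted p = 0.000182). HSC82 had 2904 and 2883 CPM treated against 4831 and 3430 untreated (-0.51 ± 0.18, adjusted p = 0.0367), a call that was lost in 7 of the 8 fits without 1 library, with an adjusted p of up to 0.274. Among the 7 stress and chaperone members, 4 were lower and 1 higher in the wild type, and 6 were lower in the deletion. The 1 that was higher was SOD1, a superoxide dismutase gene (log2 fold change 0.36), and its call was lost in 5 of the 8 fits without 1 library, with an adjusted p of up to 0.188.

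**Figure D3:**
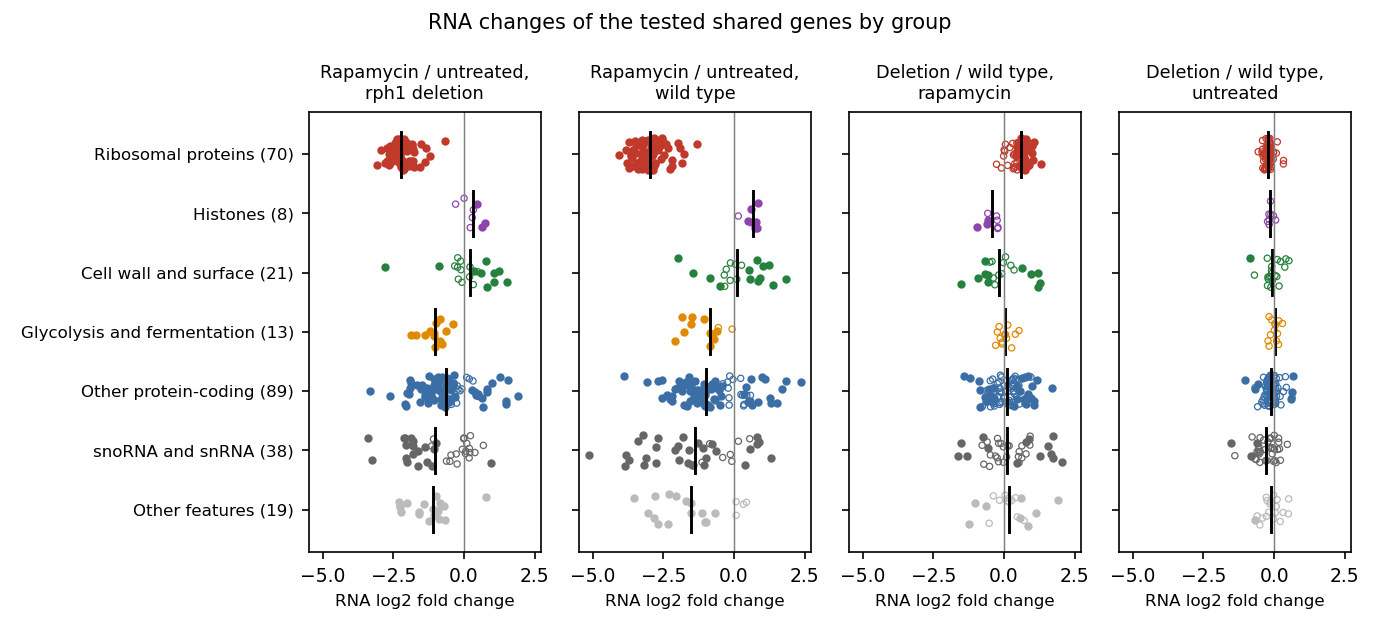
RNA log2 fold changes (horizontal) of the 258 tested genes by group (vertical, with the number of genes) in 4 comparisons; filled points passed the adjusted p of 0.05, open points did not, and black bars are medians. Other features are entries outside the gene table. Ribosomal protein genes have medians of -2.23 and -2.99 for rapamycin in the deletion and the wild type, 0.61 for the deletion under rapamycin and -0.20 for the deletion in untreated cells.

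The change of enrichment and the change of RNA ran together. Over the 258 tested genes, Pearson r between the log2 ratio of enrichment and the wild-type log2 fold change of RNA with rapamycin was 0.78 and Spearman rho was 0.78, and over 227 loci both were 0.80. Of 141 tested members with a lower enrichment under rapamycin, 128 had a lower RNA in the wild type and 5 a higher one. Of 117 with a higher enrichment, 32 had a higher RNA and 56 a lower one. With the most expressed gene taken for each locus, 113 of 121 loci with lower enrichment had a lower RNA and 2 a higher one. Of 106 loci with higher enrichment, 30 had a higher RNA and 52 a lower one. A gain of enrichment therefore came with either direction of RNA, while a loss came nearly always with a fall. Among 67 protein-coding members with more than a 2-fold loss, 66 were lower, and among 60 with more than a 2-fold gain, 29 were higher and 15 lower.

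Much of this relation lay between gene groups, but it was also seen outside the ribosomal protein genes. Among the 131 other protein-coding members r was 0.75 and rho 0.78. Among the 70 ribosomal protein genes r was 0.23 and rho 0.26. The restriction to these groups was chosen after the data had been seen. Genes are not independent replicates, and all points share the same 4 RNA libraries and the same 2 peak lists. In 23 members the enrichment changed by more than 2-fold and the RNA was called in the opposite direction. In 21 of them enrichment was higher and RNA lower, among them YDJ1, an Hsp40 gene named after its values had been seen (31.1 under rapamycin against 8.68 untreated; RNA log2 fold change -0.94 ± 0.13, adjusted p = 0.000341) and GPP1, a glycerol phosphatase gene (142 against 47.0; -1.24 ± 0.15, adjusted p = 0.000169). The 2 with lower enrichment and higher RNA were the small RNA genes SNR17A and SNR55. With the most expressed gene taken for each locus, 18 loci had higher enrichment with lower RNA, and 1 had the reverse.

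**Figure D4:**
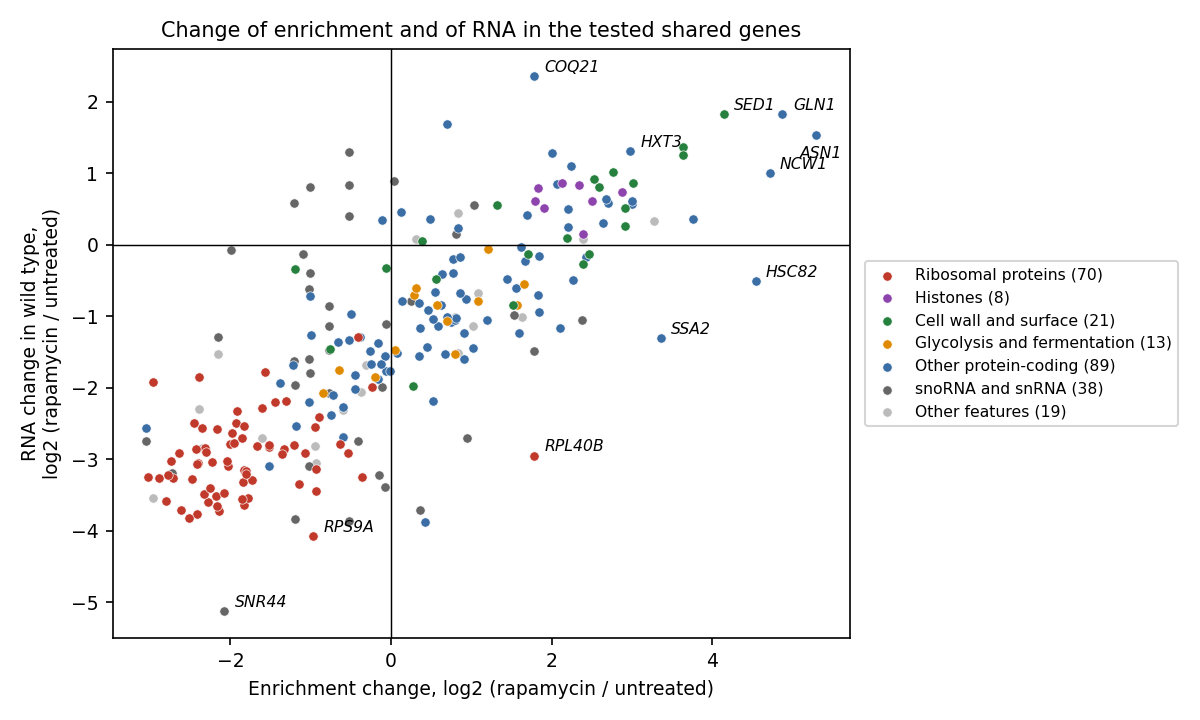
Change of FLAG-Rph1 enrichment (horizontal, log2 of rapamycin over untreated) against the RNA change in the wild type (vertical, log2 of rapamycin over untreated) for the 258 tested genes, coloured by group. Ribosomal protein genes lie at lower left with RPL40B apart on the right, SED1, GLN1 and ASN1 lie at upper right, and HSC82 and SSA2 combine a gain of enrichment with lower RNA; over loci r was 0.80.

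Loss of RPH1 in untreated cells changed few of the shared genes. Of the 258 tested, 3 were called higher and 8 lower, that is 11 against a background of 7.41% of all genes (4.88% higher and 2.53% lower), with a median log2 fold change of -0.15. No call held when each library was left out in turn, and the count was 0 without untreated deletion replicate 1, 1 without untreated deletion replicate 2, 6 without untreated wild-type replicate 2, and 7 without untreated wild-type replicate 1 or without either treated deletion library. At an unadjusted p under 0.05 there were 37. DESeq2 called 22. None of the 70 ribosomal protein members was called by the edgeR quasi-likelihood test, with adjusted p-values of 0.0904 or more, while 6 had an unadjusted p under 0.05 and DESeq2 called 1. The 11 were HXT2, ZEO1, ATP2, QCR6, SNR57, SNR83, SNR44 and NME1, which were lower, and SOD1, TSA1 and ARF2, which were higher; NME1 and SNR57 were named after their values had been seen. HXT2, a high-affinity hexose transporter gene, had 411 and 406 CPM in untreated deletion cells against 951 and 704 in untreated wild type (log2 fold change -1.02 ± 0.18, adjusted p = 0.0171), a call lost without either untreated deletion library (adjusted p up to 0.109).

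Under rapamycin, by contrast, the shared genes were more often higher in the deletion. Of the 258 tested, 81 were called higher and 29 lower, against 14.4% higher and 13.5% lower, 28.0% in all, among all genes tested, and the median log2 fold change was 0.29. Over the 80 tested members above the median enrichment of both lists, the median was 0.092. This count depended on single libraries: it was 110 in all, 32 without treated deletion replicate 1, 71 without treated deletion replicate 2 and 59 without treated wild-type replicate 2. Held in every fit were 25 higher and 4 lower calls. The comparison shares the treated wild-type libraries with the rapamycin comparison in the wild type, so their values are set side by side only. Genes listed under rapamycin alone ran the other way, with 13 higher and 150 lower of 385, and of 167 listed in untreated cells alone 90 were higher and 2 lower. With a library left out, the 150 became 75 to 165 and the 90 became 33 to 95, the lowest without treated deletion replicate 1, and the 13 became 3 to 20, the lowest without treated deletion replicate 2.

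Of the 70 ribosomal protein members, 44 were higher and none lower in the deletion under rapamycin, with a median of 0.61 on the log2 scale. With a library left out the count ranged from 7, without treated deletion replicate 1, to 57, and the median from 0.43 to 0.83. The 67 ribosomal protein genes that were not members gave 41 higher and none lower, with a median of 0.57, and 2 higher without treated deletion replicate 1. RPS9A had 36.8 and 37.5 CPM in treated deletion cells against 14.2 and 15.6 in treated wild type (1.32 ± 0.19, adjusted p = 0.00269). RPL8A had 265 and 270 CPM in treated deletion cells against 184 and 152 in treated wild type (0.67 ± 0.13, adjusted p = 0.00758). In both genes the treated groups did not overlap and the call held in every fit. They nevertheless stayed far below the untreated level, which for RPL8A was 1337 and 1417 CPM in deletion cells and 1391 and 1576 in the wild type.

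Ribosome assembly genes showed the same direction, with 5 of 7 higher in the deletion under rapamycin. DBP2 had 165 and 167 CPM in treated deletion cells against 43.4 and 59.7 in treated wild type (1.69 ± 0.24, adjusted p = 0.00262). NOP1, the gene of the ribosomal RNA methyltransferase fibrillarin, had 382 and 366 CPM in treated deletion cells against 184 and 196 in treated wild type (0.98 ± 0.14, adjusted p = 0.00242). Among the small RNA members 9 were higher and 5 lower, and without treated deletion replicate 1 these counts were 6 and 0. Their median was 0.11 and ranged from -0.085 to 0.47 with a library left out. SNR37 had 24.0 and 14.5 CPM in treated deletion cells against 4.49 and 4.91 in treated wild type (2.03 ± 0.25, adjusted p = 0.00168). None of the 13 glycolysis and fermentation members was called in either direction by the edgeR test, with adjusted p-values of 0.0703 or more, while 2 had an unadjusted p under 0.05 and DESeq2 called 3.

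The cell wall members divided, with 5 higher and 6 lower in the deletion under rapamycin. The 5 that were higher were EGT2, DSE1, DSE2, SCW11 and UTH1, of which all but EGT2 were named after their values had been seen. EGT2, DSE1, DSE2 and SCW11 are known for their part in the separation of daughter cells after division. EGT2 had 754 and 635 CPM in treated deletion cells against 282 and 295 in treated wild type (1.27 ± 0.13, adjusted p = 0.00115). DSE2 had 796 and 841 CPM in treated deletion cells against 350 and 369 in treated wild type (1.19 ± 0.15, adjusted p = 0.00168). The calls of EGT2, DSE1 and DSE2 held in every fit, while SCW11 lost its call without any 1 of the 4 treated libraries (adjusted p up to 0.123) and UTH1 without treated deletion replicate 1 (0.0638). On the lower side, SCW10, a glucanase-like gene, had 652 and 661 CPM in treated deletion cells against 1208 and 1286 in treated wild type (-0.93 ± 0.11, adjusted p = 0.00141), and its call held in every fit. The other 5 lower calls, UTR2 (-1.51), SRL1 (-0.69), FKS1 (-0.68), ZEO1 (-0.58) and GAS1 (-0.55), were lost in 1 to 4 of the 8 fits each, with adjusted p-values up to 0.221. SRL1, FKS1 and GAS1 were named after their values had been seen. Without treated deletion replicate 1, 3 cell wall members were higher and 1 was lower. Of the 8 histone members 3 were lower and none higher, but HHF2 (-0.97 ± 0.18, adjusted p = 0.00642) lost the call without treated deletion replicate 1 (0.0607), and without that library no histone member was called.

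Members with lower enrichment under rapamycin had 68 higher and 5 lower of 141 in this comparison, with a median of 0.54. Members with higher enrichment had 13 higher and 24 lower of 117, with a median of -0.15. Without treated deletion replicate 1, these counts were 20 higher among members with lower enrichment, and 6 higher and 6 lower among those with higher enrichment. Over 227 loci, r between the change of enrichment and the log2 fold change in the deletion under rapamycin was -0.52 and rho was -0.58. Among the 131 protein-coding members outside the ribosomal protein genes r was -0.52 and rho -0.60. Among the 70 ribosomal protein genes the relation was weaker, with r and rho of -0.21.

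**Figure D5:**
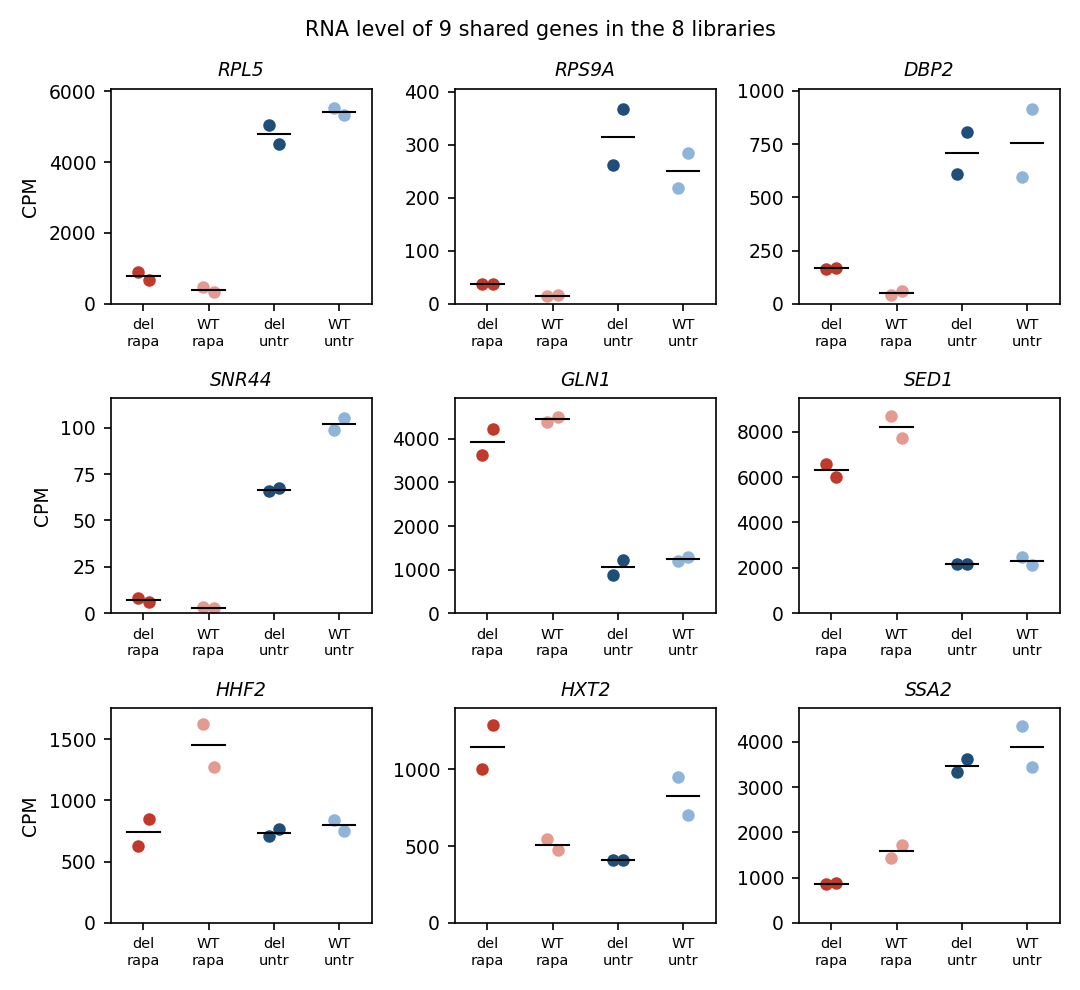
RNA level (CPM, vertical, each axis from 0) of 9 shared genes in the 8 libraries, with 1 point per library and a bar at the mean of each group of 2 (del, rph1 deletion; WT, wild type; rapa, rapamycin; untr, untreated). RPL5, RPS9A, DBP2 and SNR44 are lowest in the treated wild type, GLN1 and SED1 are high in both treated groups, and HXT2 is higher in the treated deletion (mean 1144) than in the treated wild type (mean 510).

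The response to rapamycin was compared between genotypes by an interaction term. It was called for 63 of the 258 tested members, 54 with a larger value in the deletion and 9 with a smaller one, against 7.04% larger and 6.08% smaller among all genes. The median was 0.46, and 0.28 over the 80 tested members above the median enrichment of both lists. The count fell to 6 without treated deletion replicate 1, to 14 and 22 without untreated deletion replicate 1 and 2, to 20 without treated deletion replicate 2, to 21 without treated wild-type replicate 2 and to 29 without untreated wild-type replicate 2. Of the 54, 29 were ribosomal protein genes. None of these 29 held in every fit. The 6 that did were HXT2, SNR37, SNR44, EGT2, DSE1 and NOP58, a gene of box C/D small nucleolar particles. NOP58 was named after its values had been seen.

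HXT2 changed in opposite directions in the 2 genotypes. It rose in the deletion, with 999.8 and 1288 CPM treated against 411 and 406 untreated (1.49 ± 0.18, adjusted p = 0.00031). In the wild type it had 547 and 472 CPM treated against 951 and 704 untreated (-0.70 ± 0.18, adjusted p = 0.00841), a call that was lost without treated wild-type replicate 2 (adjusted p = 0.0711). The interaction was 2.19 ± 0.25 (adjusted p = 0.00631) and held in every fit. EGT2 fell in the wild type, with 282 and 295 CPM treated against 729 and 853 untreated (-1.45 ± 0.13, adjusted p = 3.48e-05), whereas in the deletion it had 754 and 635 treated against 686 and 771 untreated (-0.07 ± 0.13, adjusted p = 0.676). The interaction for EGT2 was 1.39 ± 0.19 (adjusted p = 0.00779).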

How the data were processed

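The deposited read counts per gene were made by the authors for 8 RNA-seq libraries, and the deposited fold enrichment, a ratio over a background that the lists do not name, was given by the authors once per gene and condition. The tools named in the submitters' processing notes, with no step given for any of them, were STAR 2.5.3a and Bowtie2 2.3.4.3, which are aligners, the trimmer Trimmomatic 0.38, the counter featureCounts 1.6.3, the peak caller MACS2 2.2.1, and DESeq2 1.24.0. The named build was sacCer3. Strand and multiple-mapping settings, the pooling of immunoprecipitates and the peak threshold are not given in the sources used here.

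Members were the identifiers in both lists, and adjacent genes with an identical value were 1 locus. Counts of all 7036 entries were filtered (filterByExpr, minimum count 10), scaled by TMM and fitted over 4 groups of 2 libraries with edgeR 4.0.16 in R 4.3.3 by the quasi-likelihood test, with Benjamini-Hochberg adjustment over the 6169 genes tested and a threshold of 0.05. Total counts were 18037199 to 24769193 per library. CPM values are scaled by TMM. DESeq2 1.42.0, other scalings and filters, a replicate block and the omission of each library were alternatives. The fitting script was tested on simulated data. Coefficients used Python 3.11.15 with pandas 2.3.3 and scipy 1.17.1.

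Named genes were RPH1, the 8 loci of highest enrichment in each list, the 8 largest gains and 6 largest losses, the 3 lowest loci of each list, the 6 largest changes in each direction per RNA comparison (4 for the interaction) among called members with at least 10 CPM, and up to 3 members of each gene list by enrichment under rapamycin. Other genes are said to be named after their values were seen. The members and the gene lists were chosen with earlier results of these data known.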

Additional observations from a re-analysis of the deposited data

Results flagged for a closer look

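The interaction test, of the difference between the rph1 deletion and the wild type in the response to rapamycin, called 63 of 258 tested members. Among all 6169 genes tested it called 13.1%. The count of members depended on single libraries, as given above. The differences named here are the largest among called members with a mean of at least 10 CPM over the 8 libraries. On the log2 scale the largest positive ones were 2.19 for HXT2, 2.08 for SNR37, 1.87 for SNR44 and 1.84 for SNR30. SNR37, SNR44 and SNR30 had under 10 CPM in each treated wild-type library, and SNR44 lies within RPS22B, so their values are uncertain. The calls of HXT2, SNR37 and SNR44 held with each library left out, whereas SNR30 lost its call in 3 of the 8 fits. The largest negative differences were -1.52 for YFL031C-A, -1.01 for ARF2, a gene of an ADP-ribosylation factor, -0.99 for TSA1, a peroxiredoxin gene, and -0.95 for HAC1, the transcription factor of the unfolded protein response. YFL031C-A overlaps HAC1, so the values of both are uncertain, and none of these 4 negative calls held with every library left out in turn.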

How the results depend on the processing

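The median RNA log2 fold change of members kept its sign in each of the 5 comparisons under the alternatives that gave one; none was computed for DESeq2 or for fits of only the 4 libraries compared. With each library left out in turn, the members called numbered 208 to 218 for rapamycin in the wild type, 176 to 206 for rapamycin in the deletion, 0 to 8 for the deletion in untreated cells, 32 to 121 for the deletion under rapamycin and 6 to 72 for the interaction. The medians of log2 fold change ranged from -1.54 to -1.38, from -1.16 to -0.996, from -0.19 to -0.12, from 0.21 to 0.39 and from 0.37 to 0.51 in the same order. Of the 90 members above the median enrichment of both lists 80 were tested, so fewer genes could be called: 66, 53, 2, 30 and 17 in that order, with medians of 0.092 for the deletion under rapamycin and 0.28 for the interaction. DESeq2 called 22 members for the deletion in untreated cells and 116 for the interaction, and the cause was not tested. A replicate block gave 22 and 124, although the labels share only a number; same-numbered libraries correlated in their deviations from group means at 0.19 to 0.56 over 6169 genes, with 2 numbers only. Fitting only the 4 libraries compared, an alternative chosen after seeing the data, left 0 calls for the deletion in untreated cells, where fewer samples set the spread. The median for the deletion under rapamycin was 0.31 with RLE scaling, 0.28 with no filter and 0.33 with 1 gene per locus, against 0.29. By rank within its list, 52.2% of members stood higher under rapamycin, against 44.9% by value, so the majority turned from lower to higher. Spearman rho between untreated enrichment and RNA level was 0.39 with 1 gene per locus, against 0.21 over genes. The planned search of promoters for motifs was not run, as no promoter sequences were used here. With 2 libraries per group and 1 enrichment value per condition, small RNA differences and any error of the enrichment could not be resolved.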
